A study of Mus musculus with 3 samples.

Results

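Beta cells that carried many Ucn3 transcripts were compared with beta cells in which none was counted, within each of 3 mice. Of 16162 barcodes, 7490 showed 500 or more genes with a mitochondrial share of 15% or less, and 720 of these were insulin-rich cells with at least 10000 UMIs (unique molecular identifiers, 1 per captured transcript). A cell was insulin-rich where Ins1 and Ins2 gave at least 30% of its UMIs and Gcg, Sst and Ppy each gave under 3%. Members were chosen by their Ucn3, hormone and total UMI counts. The comparison used 632 of the 720: 588 with at least 3 Ucn3 UMIs (Ucn3-high) and 44 with 0 (Ucn3-zero). The 88 cells with 1 or 2 Ucn3 UMIs were on neither side. Mouse 1 gave 69 Ucn3-high and 6 Ucn3-zero cells, mouse 2 gave 227 and 29, and mouse 3 gave 292 and 9. The islets came from non-diabetic NOD-SCID females aged 10 to 11 weeks, an immunodeficient strain, and each droplet library was made from the islets of 1 animal. Both sides are cells of the same untreated animals and differ by the Ucn3 count that chose them.

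Ucn3 encodes urocortin 3, a peptide of the corticotropin-releasing factor family that mouse beta cells store and release with insulin. It acts on the receptor Crhr2 of neighbouring delta cells and promotes the release of somatostatin, which restrains insulin secretion. In the mouse, Ucn3 comes on late in beta-cell maturation, and beta cells that lack it have been described as immature, with little of the glucose transporter Slc2a2. The comparison asks which transcripts move with Ucn3 among cells that all make insulin.

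The promoters of Ucn3 and of Slc2a2 and Trpm5, which were higher in Ucn3-high cells, are shown with their matches to 3 short motifs bound by transcription factors of beta cells. Ucn3 (ENSMUSG00000044988) lies on the minus strand at chr13:3940688-3945349, Slc2a2 (ENSMUSG00000027690) on the plus strand at chr3:28697903-28731359 and Trpm5 (ENSMUSG00000009246) on the minus strand at chr7:143069153-143094642, all of build GRCm38. Each sequence is the 250 bases before the gene's start, 5′ to 3′, from RefSeq on GRCm38.p6, with a match in capitals.
Ucn3, chr13:3945350-3945599, minus strand: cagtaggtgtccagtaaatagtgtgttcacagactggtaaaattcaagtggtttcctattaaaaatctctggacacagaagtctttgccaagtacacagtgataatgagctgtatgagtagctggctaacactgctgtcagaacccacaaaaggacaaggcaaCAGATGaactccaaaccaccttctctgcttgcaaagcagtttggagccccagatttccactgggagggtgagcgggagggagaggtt
Slc2a2, chr3:28697653-28697902, plus strand: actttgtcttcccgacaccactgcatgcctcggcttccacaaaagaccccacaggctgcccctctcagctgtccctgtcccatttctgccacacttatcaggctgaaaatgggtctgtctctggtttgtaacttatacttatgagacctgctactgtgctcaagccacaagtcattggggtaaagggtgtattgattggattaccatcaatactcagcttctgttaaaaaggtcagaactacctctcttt
Trpm5, chr7:143094643-143094892, minus strand: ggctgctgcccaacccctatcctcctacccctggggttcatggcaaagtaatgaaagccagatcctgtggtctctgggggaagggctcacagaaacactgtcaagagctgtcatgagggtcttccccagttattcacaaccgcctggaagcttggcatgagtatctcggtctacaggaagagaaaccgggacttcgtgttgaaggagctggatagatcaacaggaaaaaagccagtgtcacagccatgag
Both strands were searched. CAGATG, an E-box of the insulin genes that NEUROD1 binds, was found once before Ucn3 and in 14.4% of 32851 mouse promoters of this length. TGCTGA, the core of Maf factor sites (16.1% of promoters), and CACGTG, another E-box (6.02%), were not in the Ucn3 window. None of the 3 motifs was in the windows of Slc2a2 and Trpm5.

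Ucn3 and the hormones chose the cells, so they are described with no test. Summed over the Ucn3-high cells of a mouse, Ucn3 stood at 175, 155 and 257 CPM, the usual depth-scaled count, in mice 1, 2 and 3, and it was 0 by choice in Ucn3-zero cells. A Ucn3-high cell held a median of 10 and at most 42 Ucn3 UMIs. At the threshold, the 47 cells with 3 Ucn3 UMIs had a median of 93.9 Ucn3 CPM, and the 37 cells with 2 had 93.8 CPM. The cells with 3 were deeper, with a median of 31954 UMIs against 21331.

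**Figure D1:**
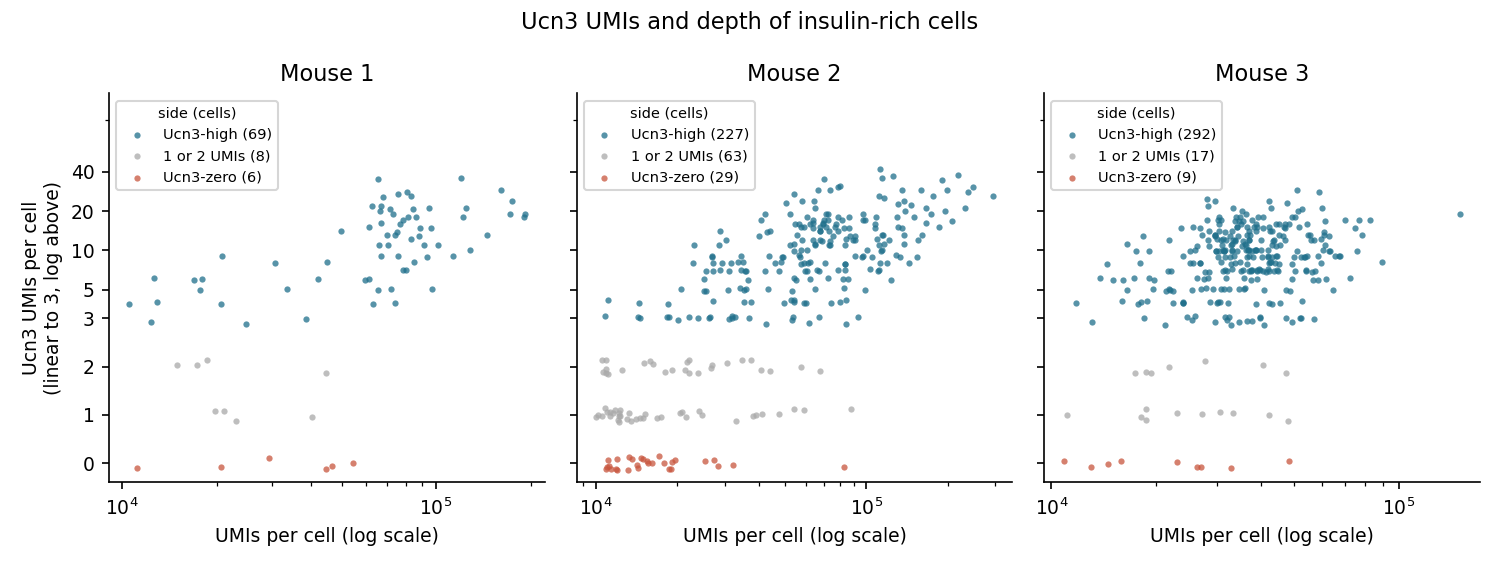
Ucn3 UMIs per cell (y axis) against all UMIs of the cell (x axis, log scale; the y axis is linear to 3 and log above) for the 720 insulin-rich cells, by mouse. Ucn3-zero cells lie toward the shallow end, most of all in mouse 2, where their median is 14908 UMIs.

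Depth differed between the sides in every mouse. Ucn3-high cells had a median of 74005, 66789 and 36493 UMIs, against 36960, 14908 and 22974 in Ucn3-zero cells of mice 1, 2 and 3. Of the 112 cells with 10000 to 20000 UMIs, 36 were Ucn3-high and 29 Ucn3-zero. Of the 246 cells with 20000 to 40000 UMIs, 210 were Ucn3-high and 10 Ucn3-zero, and of the 362 deeper cells 342 were Ucn3-high and 5 Ucn3-zero. As a measure of free RNA, Ucn3 was also counted in other cell types. At least 1 Ucn3 UMI was found in 676 of the 720 (93.9%, exact 95% interval 91.9 to 95.5, median 40261 UMIs). Of 663 endothelial or macrophage barcodes, which should lack the gene, 14 had one (2.11%, exact 95% interval 1.16 to 3.52, median 5899 UMIs) and 0 had 3 or more. These intervals cover counting error only. Of the 167 endothelial or macrophage barcodes with at least 10000 UMIs (median 13442), 5 had a Ucn3 UMI (2.99%). By mouse these were 4 of 40, 1 of 40 and 0 of 87 in mice 1, 2 and 3.

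Insulin took a larger part of the RNA in Ucn3-high cells than in Ucn3-zero cells of each mouse. Ins1 and Ins2 together made 66.9%, 68.6% and 64.7% of the summed UMIs of Ucn3-high cells, against 45.2%, 60.0% and 52.6% in Ucn3-zero cells. Ins2 alone took 47.0% ± 0.0745 of Ucn3-high UMIs and 35.2% ± 8.30 of Ucn3-zero UMIs (SD, n = 3 mice). Ins1 took 19.7% ± 1.89 and 17.4% ± 0.940. In mice 1 and 3 the wider gap was in Ins2, and in mouse 2 it was in Ins1, which took 21.5% of Ucn3-high UMIs and 16.4% of Ucn3-zero UMIs, beside 47.0% and 43.6% for Ins2. The Ins2 share hardly varied between mice in Ucn3-high cells and varied widely in Ucn3-zero cells. Insulin was under 50% in 25 of 588 Ucn3-high cells and in 13 of 44 Ucn3-zero cells. Mitochondrial transcripts made 2.95%, 2.37% and 3.22% of Ucn3-high UMIs, against 4.18%, 2.90% and 4.97% of Ucn3-zero UMIs. At 10000 UMIs per cell, the median number of genes was 1553, 1493 and 1735.5 in Ucn3-high cells and 2199, 1409 and 2106 in Ucn3-zero cells.

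Genes that the rule did not use and that mark beta cells were present on both sides. Pdx1, a transcription factor that beta cells need, averaged 93.4 ± 5.60 CPM in Ucn3-high cells and 64.9 ± 11.2 CPM in Ucn3-zero cells, and Nkx6-1, which keeps beta-cell identity, 177.5 ± 6.66 and 161 ± 59.3 CPM (SD, n = 3). Slc30a8, the zinc transporter of insulin granules, averaged 383 ± 12.2 CPM in Ucn3-high cells and 270.3 ± 46.3 CPM in Ucn3-zero cells. None of these 3 genes passed the test described below, with adjusted p-values of 0.395, 0.852 and 0.266 in edgeR. Of the other beta-cell markers, Iapp and Slc2a2 were higher in Ucn3-high cells and passed, while Mafa, G6pc2 and Ero1lb did not (values below).

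Some Ucn3-zero cells stood apart. The cells with the highest scores of a doublet caller (Scrublet, taking 0.8% per 1000 barcodes of a library) were 30 of 588 Ucn3-high cells (5.10%) and 11 of 44 Ucn3-zero cells (25.0%). These 11 were 2 of 6 in mouse 1, 3 of 29 in mouse 2 and 6 of 9 in mouse 3. The caller's automatic threshold marked 2 Ucn3-high cells and 0 Ucn3-zero cells. All were kept, and values without them are given below for some of the named genes. Acinar markers, genes of the enzyme-secreting cells of the pancreas, took 0.357% of Ucn3-high UMIs and 3.42% of Ucn3-zero UMIs in mouse 2. In mice 1 and 3 they took 0.104% and 0.0468% of Ucn3-high UMIs, against 0.218% and 0.0661% of Ucn3-zero UMIs. Gamma markers, genes of the pancreatic polypeptide cells, took 0.0178% of Ucn3-high UMIs and 0.308% of Ucn3-zero UMIs in mouse 3. Alpha markers took 0.0699%, 0.0558% and 0.0947% of Ucn3-high UMIs, against 0.185%, 0.0853% and 0.152% of Ucn3-zero UMIs in mice 1, 2 and 3. Duct markers took 0.0215%, 0.0274% and 0.0270% of Ucn3-high UMIs, against 0.0412%, 0.0446% and 0.0529% of Ucn3-zero UMIs. Both were thus lower in Ucn3-high cells of every mouse. Insulin took more of the Ucn3-high UMIs, which lowers every other share there. Of UMIs other than insulin, alpha markers took 0.211%, 0.178% and 0.268% in Ucn3-high cells, against 0.338%, 0.213% and 0.320%. Duct markers took 0.0648%, 0.0871% and 0.0764%, against 0.0752%, 0.111% and 0.112%. The order held with smaller fold gaps, and the part of these markers in the results was not tested. Endothelial, macrophage, pericyte, fibroblast, Schwann, lymphocyte and red cell markers each took at most 0.0145% in any of the 6 sums. Libraries 1 and 2 shared 148 barcodes, and 13 Ucn3-high and 0 Ucn3-zero cells carried a barcode found in another library.

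To compare the sides, UMIs were summed per mouse and side and tested in edgeR with the mouse as a block, so that n is 3 mice. Of 8799 genes tested, 83 (0.943%) passed a false discovery rate of 0.05. Of these, 23 (0.261%) were higher and 60 (0.682%) lower in Ucn3-high cells, and 78 of the 83 went the same way in all 3 mice. In 69 of the 83 the 2 sides did not overlap across mice, and among the 31 named genes past the test the exceptions were Errfi1, Malat1, Irs2 and Klf4. The test picked the 83 on these same sums, so both counts partly follow from that choice and add no support. The shares over all 8799 genes are not given. DESeq2 on the same sums called 37 genes (0.421%), 5 higher (0.0568%) and 32 lower (0.364%). Levels below are CPM scaled by the trimmed mean of M values (TMM), and fold changes are log2 of Ucn3-high over Ucn3-zero with their standard error. Calls in the gene lists below are to be read against the shares over all genes, 0.261% higher and 0.682% lower. At an unadjusted p under 0.05 in edgeR, 425 of the 8799 were higher and 414 lower. The median over all genes tested was 0.051. With library totals alone, in which insulin weighs heavily, that median was -0.37, and 5 genes were higher and 238 lower.

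Of 8 maturity genes reported as low in Ucn3-negative beta cells, 2 were higher in Ucn3-high cells and 6 did not pass the test. All 8 had a positive fold change, with a median of 0.57 and 5 at an unadjusted p under 0.05. Of all 8799 genes tested, 4748 were positive, 425 were higher at an unadjusted p under 0.05, and 23 (0.261%) passed as higher. At fixed depth, described below, 0 of 7 passed and 5 were negative. Slc2a2, which lets glucose into the mouse beta cell, stood at 428, 409 and 419 CPM in Ucn3-high cells and at 191, 292 and 196 CPM in Ucn3-zero cells of mice 1, 2 and 3. The sides did not overlap, and Slc2a2 was 1.86-fold higher in Ucn3-high cells (log2 0.90 ± 0.19, adjusted p = 0.0130). Trpm5, a calcium-activated cation channel that helps to depolarise the cell, stood at 113, 131 and 169 CPM in Ucn3-high cells, against 33.0, 82.8 and 35.7 CPM in Ucn3-zero cells. It was 2.62-fold higher (log2 1.39 ± 0.25, adjusted p = 0.00196), again with no overlap, and the narrowest gap was in mouse 2.

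Mafa, the factor that drives the insulin genes in adult beta cells, had the largest fold change of the 8 and did not pass in edgeR. It stood at 391, 342 and 292 CPM in Ucn3-high cells and at 109, 255 and 53.5 CPM in Ucn3-zero cells. The sides did not overlap, mouse 2 gave the highest Ucn3-zero value, and the log2 fold change was 1.43 ± 0.33 (adjusted p = 0.109). DESeq2 called Mafa (1.45, adjusted p = 0.0194) and Trpm5 (1.42, adjusted p = 0.0427) but not Slc2a2 (0.85, adjusted p = 0.270) or Iapp (0.76, adjusted p = 0.266). The log2 fold change was 0.67 ± 0.20 for the prolactin receptor Prlr, 0.47 ± 0.18 for the endoplasmic reticulum oxidoreductase Ero1lb, 0.46 ± 0.27 for the fatty acid receptor Ffar1, 0.31 ± 0.19 for the glucose-6-phosphatase G6pc2 and 0.31 ± 0.83 for the incretin receptor Glp1r. Their adjusted p-values ran from 0.145 to 0.947. Glp1r was scarce, at 3.70 ± 0.614 CPM in Ucn3-high cells and 2.64 ± 2.32 CPM in Ucn3-zero cells (SD, n = 3).

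The secretory genes split. Of 24 granule and hormone-processing genes tested, 2 were higher and 3 lower in Ucn3-high cells, with a median of -0.19. Iapp, the amyloid peptide that beta cells secrete with insulin, reached 35022, 37945 and 27507 CPM in Ucn3-high cells, against 15440, 23867 and 18257 CPM in Ucn3-zero cells. It was 1.76-fold higher in Ucn3-high cells (log2 0.81 ± 0.16, adjusted p = 0.00553), and the sides did not overlap. Sytl4 (granuphilin), which docks insulin granules at the membrane, was also higher (0.97 ± 0.24, adjusted p = 0.0451).

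The 3 lower genes of the list were Chga, Chgb and Pam. Chga, the granule matrix protein chromogranin A, stood at 3706, 3714 and 4282 CPM in Ucn3-high cells and at 6045, 5820 and 9868 CPM in Ucn3-zero cells (log2 -0.85 ± 0.17, adjusted p = 0.00477). The sides did not overlap, and mouse 3 had the highest Ucn3-zero value. The log2 fold change was -0.94 ± 0.22 for Chgb (adjusted p = 0.0378) and -0.89 ± 0.19 for Pam, which amidates peptides (adjusted p = 0.0102). The 11 Ucn3-zero cells with the highest doublet scores held 60.0% of the Chga, 54.1% of the Chgb and 61.5% of the Pam UMIs of their side, beside 5.62%, 4.93% and 5.40% in the 30 such Ucn3-high cells. Without all these cells Chga was at 0.20, Chgb at -0.45 and Pam at 0.11, and none passed. The proconvertase genes Pcsk1 (0.47) and Pcsk2 (-0.32) did not pass. Of 32 genes of glucose entry and insulin secretion, 3 were higher (Slc2a2, Trpm5 and Sytl4) and 0 lower, with a median of 0.064 and 4 lower at an unadjusted p under 0.05.

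**Figure D2:**
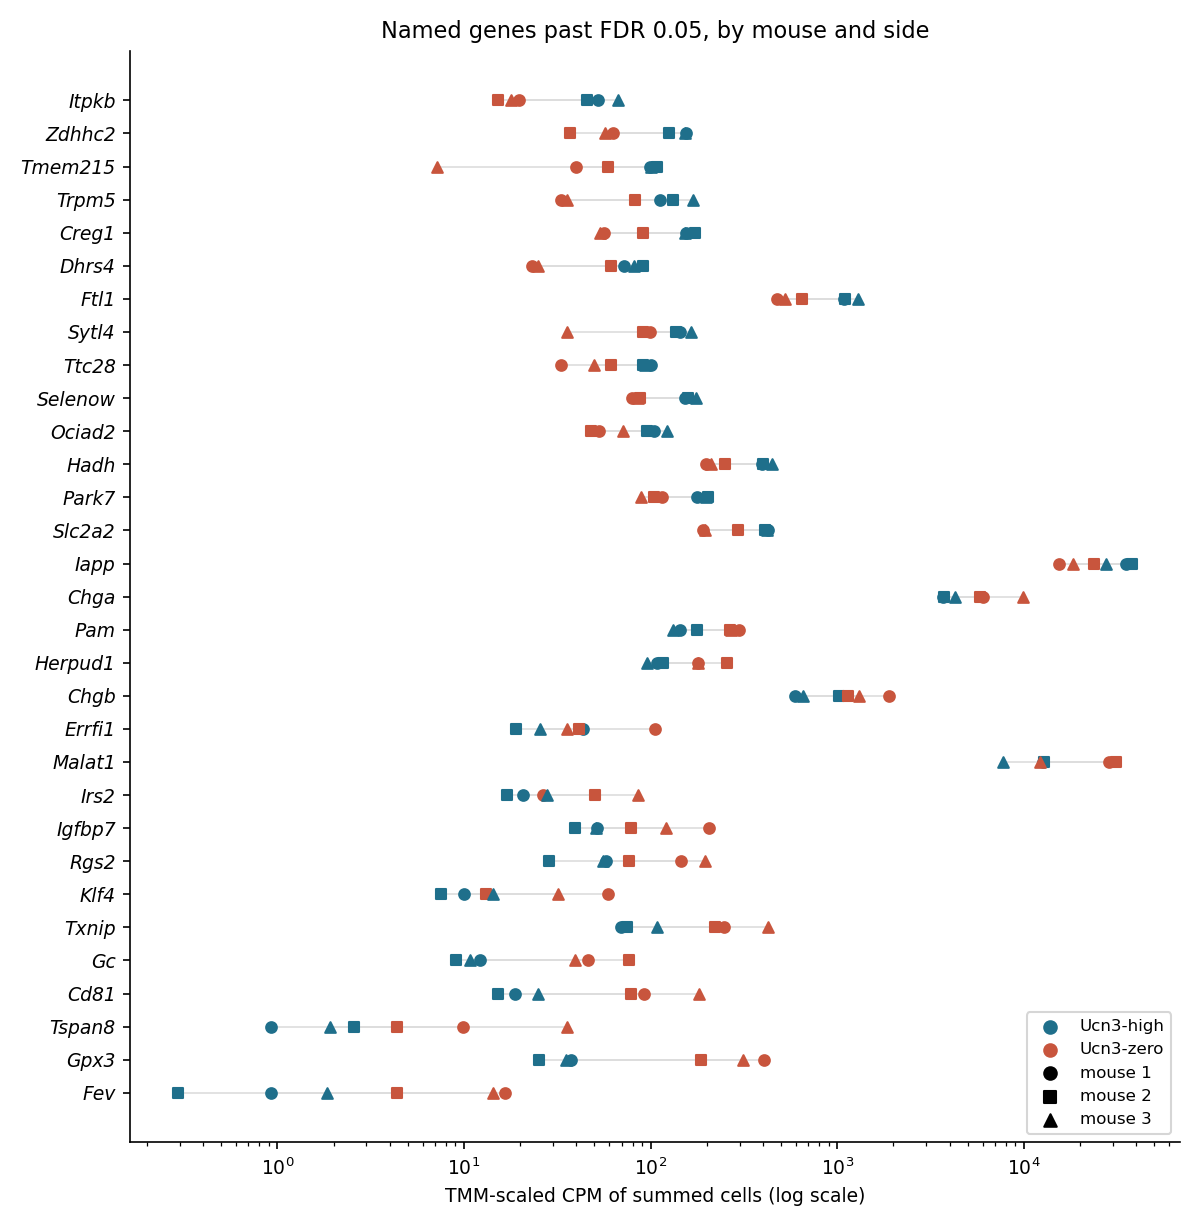
Scaled CPM (x axis, log scale) of each named gene past the false discovery rate, with 1 point per mouse for Ucn3-high and for Ucn3-zero cells. Gpx3 shows a wide gap, with 25.3 to 37.2 CPM in Ucn3-high cells and 185 to 406 CPM in Ucn3-zero cells.

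Of 12 tested genes of immature or dedifferentiated beta cells, 4 were lower in Ucn3-high cells, 0 higher and 8 did not pass. Their median was -1.17, 4 of the 12 were positive, and 0 were higher and 6 lower at an unadjusted p under 0.05. Of all 8799 genes tested, 0.682% passed as lower, and 414 were lower at an unadjusted p under 0.05. Cd81, a tetraspanin surface protein described on immature and stressed beta cells, stood at 18.7, 15.2 and 24.9 CPM in Ucn3-high cells, against 92.4, 78.5 and 182 CPM in Ucn3-zero cells. The sides did not overlap (log2 -2.54 ± 0.22, adjusted p = 5.1e-09).

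Fev and Tspan8 rested on few molecules. Fev, a factor of serotonin-making cells and endocrine progenitors, had 4, 4 and 20 UMIs in Ucn3-high cells and 5, 2 and 4 in Ucn3-zero cells (-3.46 ± 0.46, adjusted p = 5.9e-05). Tspan8, another tetraspanin, had 4, 35 and 21 UMIs in Ucn3-high cells and 3, 2 and 10 in Ucn3-zero cells (-2.92 ± 0.59, adjusted p = 0.0131). Tspan8 is also on the gamma marker list. The 12 untested genes of the immature list were too rare, among them the progenitor factor Neurog3, with 13 UMIs in Ucn3-high and 0 in Ucn3-zero cells. The summed UMIs were 34213627 in Ucn3-high and 963472 in Ucn3-zero cells, so at this depth a count of 0 for a gene this rare does not show its absence. None of the 18 genes normally silenced in beta cells had counts enough to be tested. Together they had 272 UMIs in Ucn3-high cells and 18 in Ucn3-zero cells, where 5 of the 18 were found. Oat, an ornithine aminotransferase, had 56 UMIs in Ucn3-high cells and 9 in Ucn3-zero cells. Mgst1, a microsomal glutathione transferase, had 9 and 6, and Ldha, lactate dehydrogenase, 13 and 0. Oat and Mgst1 were named after their values were seen.

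Outside these groups, Gpx3, a secreted glutathione peroxidase, had the lowest p of all genes. It stood at 37.2, 25.3 and 35.2 CPM in Ucn3-high cells, against 406, 185 and 314 CPM in Ucn3-zero cells, 8.92-fold lower in Ucn3-high cells (log2 -3.16 ± 0.20, adjusted p = 3.7e-12). Txnip, a glucose-induced inhibitor of thioredoxin, stood at 69.6, 74.5 and 108 CPM in Ucn3-high cells and at 248, 222 and 428 CPM in Ucn3-zero cells (log2 -1.80 ± 0.19, adjusted p = 2.6e-07). In neither gene did the sides overlap. They were the 2 of 17 antioxidant genes that passed, and the median of that list was 0.098.

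Signalling genes among the lower named genes were Rgs2, Irs2, Igfbp7 and Errfi1. Rgs2, which dampens G-protein signals, was at -1.53 ± 0.20 (adjusted p = 2.0e-05), and the insulin receptor substrate Irs2 at -1.32 ± 0.27 (adjusted p = 0.00923). Igfbp7, a binding protein of insulin-like growth factors, was at -1.43 ± 0.21 (adjusted p = 1.6e-04), and Errfi1, an inhibitor of the EGF receptor, at -1.04 ± 0.25 (adjusted p = 0.0327). Without the cells of the highest doublet scores Rgs2 was at 0.032, Igfbp7 at 0.093 and Irs2 at -1.12, none past the test, and Errfi1 at -1.38 still passed. The nuclear RNA Malat1 was at -1.04 ± 0.16 (adjusted p = 3.3e-04). For Errfi1, Malat1 and Irs2 the sides overlapped across mice, although each was lower in 3 of 3. Gc, the vitamin D binding protein, was at -2.40 ± 0.30 (adjusted p = 1.5e-05). With Cd81 and Chgb it made up the 3 of 11 reported heterogeneity genes that were lower.

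The higher genes included enzymes with no place in the maturity list. Zdhhc2, which attaches palmitate to proteins, stood at 154, 125 and 153 CPM in Ucn3-high cells, against 62.7, 37.1 and 57.0 CPM in Ucn3-zero cells (log2 1.49 ± 0.22, adjusted p = 1.7e-04). Itpkb, an inositol trisphosphate kinase, stood at 52.0, 45.8 and 66.5 CPM in Ucn3-high cells and at 19.8, 15.3 and 17.8 CPM in Ucn3-zero cells (log2 1.62 ± 0.31, adjusted p = 0.00351). For both genes the sides were well apart. Ftl1, the ferritin light chain that stores iron, was at 1.08 ± 0.18 (adjusted p = 6.5e-04), and Creg1, a secreted glycoprotein, at 1.25 ± 0.22 (adjusted p = 0.00113). Hadh, a mitochondrial enzyme of fatty acid oxidation, was at 0.91 ± 0.19 (adjusted p = 0.00811). Tmem215 (1.48), Dhrs4 (1.12), Ttc28 (0.96), Selenow (0.94), Ociad2 (0.92) and Park7 (0.90) were higher in 3 of 3 mice as well.

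For several lower genes, most UMIs of the Ucn3-zero side sat in few cells. The cells with the highest doublet scores held 4.35% of all UMIs in Ucn3-high cells and 35.4% in Ucn3-zero cells, which is the share to read the following values against. Gpx3 was found in 238 of 588 Ucn3-high cells (40.5%) and in 15 of 44 Ucn3-zero cells (34.1%), at unequal depths. In Ucn3-high cells, 132 of its 890 UMIs (14.8%) lay in the cells with the highest doublet scores, and in Ucn3-zero cells 227 of 296 (76.7%) lay in those 11 cells. In mouse 1 all 123 Gpx3 UMIs of the Ucn3-zero side came from 2 cells, and in mouse 2, where 17 of 85 were in such cells, 1 cell outside them held 61. They held 16.3% of the Cd81 UMIs on the Ucn3-high side and 78.3% on the Ucn3-zero side. The shares were 15.1% and 75.8% for Igfbp7, 6.49% and 76.9% for Rgs2, and 7.78% and 60.6% for Txnip. Txnip itself was widely spread, with a UMI in 435 of 588 Ucn3-high cells and in 32 of 44 Ucn3-zero cells. For higher genes the shares on the Ucn3-zero side were 6.90% for Trpm5, 12.7% for Mafa, 23.1% for Slc2a2 and 38.5% for Zdhhc2. Trpm5 was found in 562 of 588 Ucn3-high cells and in 22 of 44 Ucn3-zero cells.

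Without the cells of the highest doublet scores, 66, 214 and 278 Ucn3-high and 4, 26 and 3 Ucn3-zero cells remained, and 8 genes were higher and 17 lower. Creg1 (1.23), Ftl1 (1.03), Iapp (1.14), Selenow (1.25), Zdhhc2 (1.39), Errfi1 (-1.38) and Txnip (-1.19) still passed. Gpx3 (-1.31), Cd81 (-1.27), Trpm5 (0.79) and Slc2a2 (0.54) kept their direction and did not pass. Chga (0.20), Pam (0.11), Igfbp7 (0.093) and Rgs2 (0.032) were positive here and did not pass. Whether these cells are doublets was not tested. Keeping only cells with at least 50% insulin left 2, 24 and 5 Ucn3-zero cells, 0 genes higher in edgeR (223 at an unadjusted p under 0.05) and 10 lower. Gpx3 (-1.89), Cd81 (-2.13) and Gc (-2.60) were among the 10, while Slc2a2 (0.95), Trpm5 (1.21), Mafa (1.26), Zdhhc2 (1.87) and Chga (-0.033) did not pass.

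When 1 mouse at a time was left out, 5 of the 31 named genes that had passed were called in each of the 3 fits: Cd81, Gpx3, Igfbp7, Rgs2 and Txnip. Another 10 were called in none, namely Chga, Dhrs4, Errfi1, Iapp, Klf4, Malat1, Ociad2, Pam, Slc2a2 and Ttc28. No named gene that had passed changed sign. The genes named for their fold change had been chosen for going the same way in every mouse, so this was largely fixed beforehand. The counts were 25 higher and 60 lower without mouse 1, 5 and 20 without mouse 2, and 3 and 29 without mouse 3. Mafa passed without mouse 1 (1.24) and without mouse 2 (2.14).

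A deeper cell has more chances to show a Ucn3 transcript, so every cell was also thinned to 10000 UMIs and the sides were made again from the thinned counts. This gave 225 Ucn3-high cells (19, 60 and 146 in mice 1, 2 and 3) and 162 Ucn3-zero cells (24, 100 and 38). Most thinned Ucn3-zero cells did carry Ucn3: before thinning the median was 12 Ucn3 UMIs in the thinned Ucn3-high cells and 3 in the thinned Ucn3-zero cells. This contrast is thus between more and less Ucn3 at 1 depth. Before thinning, insulin made 63.6%, 64.9% and 62.5% of their UMIs in Ucn3-high cells, against 64.9%, 69.5% and 65.4% in Ucn3-zero cells, the opposite order to the one above. Of 3101 genes tested, 45 (1.45%) passed, 8 (0.258%) higher and 37 (1.19%) lower in Ucn3-high cells, and the median over all genes was 0.010.

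At this depth 11 genes passed that had also passed above, 13.3% of the 83 and 24.4% of the 45. Only 40 of the 83 had counts enough to be tested at this depth, and 35 of these kept their sign. All 45 were tested above, where 38 had the same sign. Zdhhc2, with the largest increase, stood at 229.8, 152 and 199 CPM in thinned Ucn3-high cells, against 66.4, 74.1 and 95.4 CPM in thinned Ucn3-zero cells (1.20 ± 0.17, adjusted p = 5.2e-04). Its sides did not overlap. Itpkb (0.97 ± 0.23, adjusted p = 0.0279), Ftl1 (0.66 ± 0.096, adjusted p = 5.2e-04), Creg1 (0.63 ± 0.16, adjusted p = 0.0414) and Camk2n1 (0.53), the last named after its values were seen, were higher again. Txnip (-1.29 ± 0.18, adjusted p = 5.2e-04), Gpx3 (-1.36 ± 0.23, adjusted p = 0.00117), Chga (-0.54 ± 0.081, adjusted p = 5.7e-04), Chgb (-0.67 ± 0.10, adjusted p = 6.2e-04), Pam (-0.81 ± 0.15, adjusted p = 0.00327) and Herpud1 (-0.80 ± 0.17, adjusted p = 0.0150) were lower again. For Creg1 and Gpx3 the sides overlapped across mice at this depth. Both comparisons draw on the same 720 cells, so they are not separate samples. The highest doublet scores fell on 10 of 225 thinned Ucn3-high cells (4.44%) and 22 of 162 thinned Ucn3-zero cells (13.6%). In mouse 3 these were 6 of 146 and 11 of 38. The part of such cells in this contrast was not tested. DESeq2 called 0 genes in this contrast, with 7 higher and 28 lower at an unadjusted p under 0.05.

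The maturity genes did not pass at this depth: 0 of the 7 tested were called by edgeR, 1 was higher at an unadjusted p under 0.05, and the median was -0.10. Slc2a2 stood at 430.2, 335 and 410.2 CPM in thinned Ucn3-high cells and at 319, 352 and 339 CPM in thinned Ucn3-zero cells (0.19 ± 0.13, adjusted p = 0.670), and the sides overlapped. Trpm5 was at -0.072 ± 0.16 and Iapp at -0.068 ± 0.070. Mafa was the most positive of the list at 0.52 ± 0.15 (adjusted p = 0.120), with 416, 360.1 and 294 CPM in thinned Ucn3-high cells and 328, 318 and 136 CPM in thinned Ucn3-zero cells. Of 6 genes of the immature list 0 passed in edgeR, with 0 at an unadjusted p under 0.05 and a median of -0.35, and Cd81 was at -0.95 ± 0.48.

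**Figure D3:**
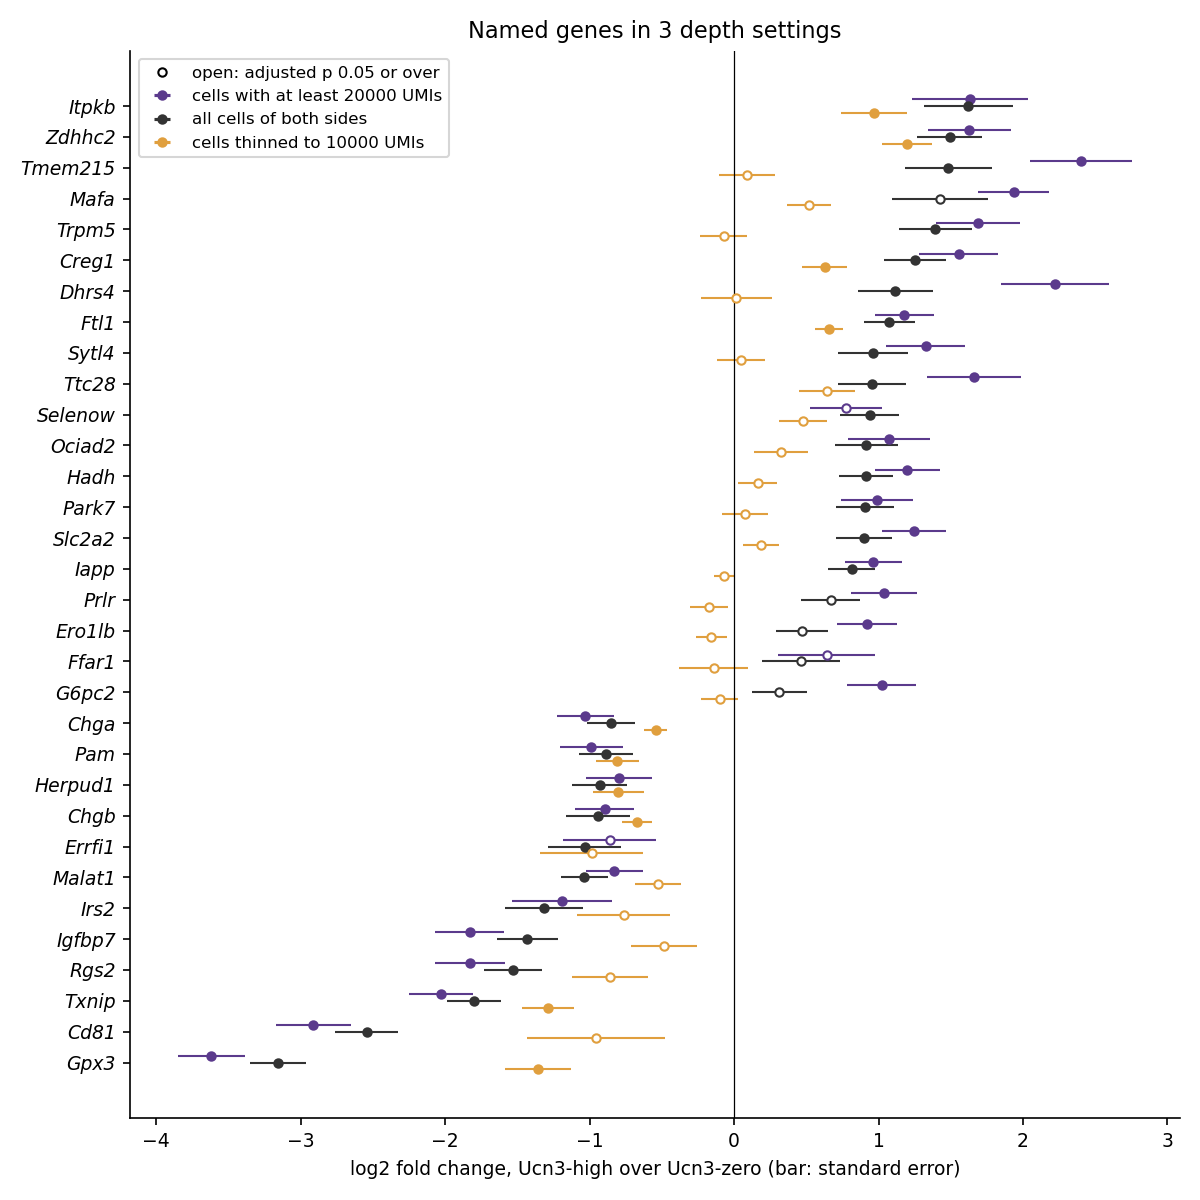
Log2 fold change of named genes, Ucn3-high over Ucn3-zero (x axis, bars are standard errors), in cells with at least 20000 UMIs, in all cells of both sides, and in cells thinned to 10000 UMIs with sides made again. Filled points passed the false discovery rate. Trpm5 is at 1.69, 1.39 and -0.072 in these settings, and Zdhhc2 at 1.63, 1.49 and 1.20.

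Of 26 genes of protein folding in the endoplasmic reticulum tested at fixed depth, 7 were lower in Ucn3-high cells, 0 higher and 19 did not pass, with a median of -0.45 beside 0.010 for all genes. Of all 3101 genes tested at this depth, 37 (1.19%) were lower. The members named here, apart from Herpud1, were chosen after their values were seen. Hspa5 (BiP), the main chaperone of that compartment, stood at 733, 722 and 645 CPM in thinned Ucn3-high cells, against 1033, 1001 and 1044 CPM in thinned Ucn3-zero cells (-0.56 ± 0.098, adjusted p = 0.00206). The sides did not overlap. The others were the disulfide isomerases Pdia3 (-0.62) and Pdia6 (-0.49), the co-chaperones Dnajb9 (-0.79) and Dnajc3 (-0.59), the secreted stress protein Manf (-0.56) and Herpud1, a factor of protein disposal (-0.80). With all UMIs, 1 of 30 passed (Herpud1, at -0.93 ± 0.19, adjusted p = 0.00732), the median was -0.035, and Hspa5 was at -0.49 (adjusted p = 0.243). In cells with at least 20000 UMIs, 1 of 30 was higher (Ero1lb), 1 lower (Herpud1), and the median was 0.15.

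Of immediate-early genes, which respond quickly to stimuli and to tissue dissociation, 4 of 16 were lower at fixed depth and 0 higher, with a median of -0.43. These were Fos (-0.51), Junb (-0.67), Jund (-0.49) and Socs3 (-1.22), also chosen after their values were seen. Over all 3101 genes tested at this depth, 1.19% were lower and the median was 0.010. With all UMIs 1 of 22 passed, Klf4 at -1.62 ± 0.37 (adjusted p = 0.0201), and the median was -0.39. Of 22 granule genes at fixed depth, the granin Scg2 was higher (0.43), and Chga, Chgb, Pam and Pcsk2 (-0.42) were lower; Scg2 and Pcsk2 were not among the named genes. Atp2a2, the pump that fills the endoplasmic reticulum with calcium, named for the same reason, stood at 557, 479 and 588 CPM in thinned Ucn3-high cells, against 253, 329 and 324 CPM in thinned Ucn3-zero cells (0.81 ± 0.12, adjusted p = 6.2e-04). Acinar markers took 0.524% of thinned Ucn3-high UMIs and 1.79% of thinned Ucn3-zero UMIs in mouse 2, and 2 of 15 were lower. Their part in these results was not tested. Without mouse 3, which gave most of the thinned Ucn3-high cells, 2 genes were higher and 5 lower.

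Cells with at least 20000 UMIs give the contrast in which a Ucn3 count of 0 is least likely to be a missed transcript. They left 62, 219 and 271 Ucn3-high and 5, 5 and 5 Ucn3-zero cells. Of 8533 genes tested, 133 (1.56%) passed, 61 (0.715%) higher and 72 (0.844%) lower, and 65 of them were among the 83. Of the 8 maturity genes 6 were higher, with a median of 1.03 beside 0.094 for all genes: Mafa, Trpm5, Slc2a2, Prlr, G6pc2 and Ero1lb. Mafa stood at 397, 345 and 308 CPM in Ucn3-high cells, against 96.6, 121 and 61.1 CPM in Ucn3-zero cells (1.94 ± 0.25, adjusted p = 7.1e-12). The sides did not overlap. G6pc2 was uneven, at 399, 402 and 391 CPM in Ucn3-high cells and at 469, 80.6 and 137 CPM in Ucn3-zero cells, so that mouse 1 went the other way. Pdx1, chosen after its values were seen, averaged 96.3 ± 7.13 CPM in Ucn3-high cells and 46.3 ± 19.5 CPM in Ucn3-zero cells (SD, n = 3) and passed too (adjusted p = 0.0363 in edgeR). Gpx3 (-3.62 ± 0.23), Cd81 (-2.91 ± 0.26) and Chga (-1.03 ± 0.20) were again lower. In these cells acinar markers of mouse 2 took 0.350% of Ucn3-high UMIs and 0.530% of Ucn3-zero UMIs, and gamma markers of mouse 3 took 0.0175% and 0.378%. All these values rest on 15 Ucn3-zero cells, of which 7 (2, 1 and 4 in mice 1, 2 and 3) had the highest doublet scores. These cells held 4.22% of all UMIs on the Ucn3-high side of this contrast and 51.6% on the Ucn3-zero side, and their part in these results was not tested.

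Levels over 4 classes of Ucn3, which now include the 88 cells with 1 or 2 UMIs, are given without a test, since the classes share the cells above and differ in depth. Slc2a2 averaged 221 ± 41.8, 402 ± 49.6, 395 ± 29.3 and 380.1 ± 29.4 CPM in cells with 0, 1 or 2, 3 to 9 and at least 10 Ucn3 UMIs (SD, n = 3 mice). Trpm5 averaged 48.6, 109, 121 and 131 CPM, Mafa 133, 385, 324 and 313 CPM, and Gpx3 300.0, 39.2, 31.9 and 26.8 CPM in the same classes. For the means of these 4 genes the widest step lay between 0 and 1 or 2 UMIs. Ftl1 instead climbed from class to class in each mouse, with means of 537 ± 58.5, 705 ± 176, 913 ± 157 and 1154 ± 158 CPM. The means of Zdhhc2 also climbed, at 51.9, 79.4, 112 and 145 CPM, and those of Txnip declined, at 297, 173, 92.3 and 69.5 CPM.

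**Figure D4:**
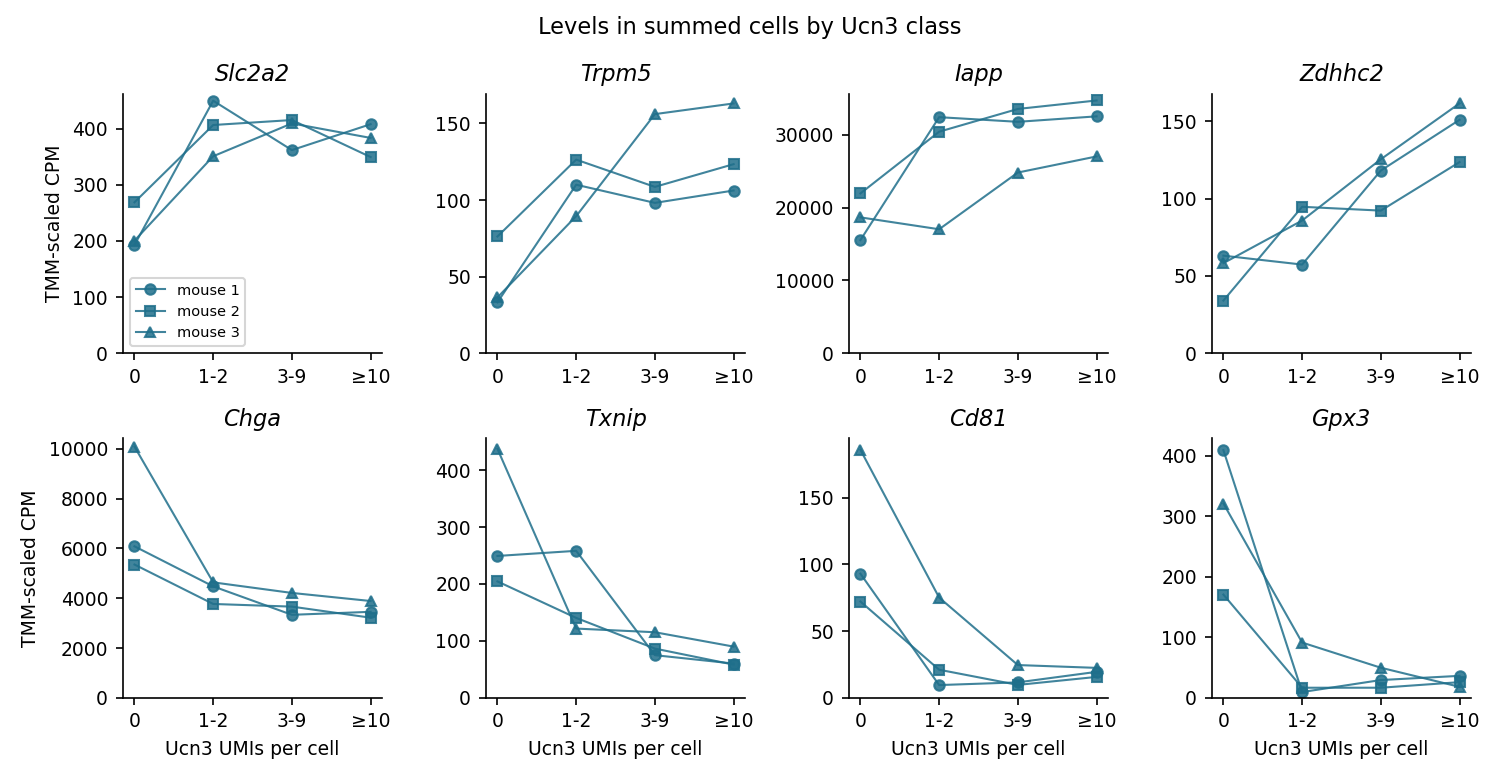
Scaled CPM (y axis) of 8 genes in summed cells with 0, 1 or 2, 3 to 9, and 10 or more Ucn3 UMIs (x axis, low to high), by mouse. In all 3 mice Zdhhc2 is highest in the class with 10 or more, where its mean is 145 CPM, and the mean of Cd81 is 117 CPM in cells with 0 and 19.2 CPM in those with 10 or more.

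Few genes of the other lists passed. Of 20 beta-cell transcription factors 0 were called with all UMIs by edgeR (4 higher and 1 lower at an unadjusted p under 0.05), and the median was 0.078. All 24 cytosolic ribosomal protein genes were positive with a median of 0.39, of which 15 had an unadjusted p under 0.05 and 0 passed. Of all 8799 genes tested, 4748 were positive and 425 were higher at an unadjusted p under 0.05. Without TMM the median of all genes moves by more than 0.39, so shifts of this size depend on the scaling. Glycolysis (14 tested, median 0.38) and oxidative phosphorylation (23 tested, median 0.28) had 0 calls in edgeR, with 5 and 4 genes higher at an unadjusted p under 0.05. Receptors of islet signals (18 tested), interferon and antigen presentation (10) and cell cycle genes (3) had 0 calls, with 1, 1 and 0 at an unadjusted p under 0.05. The other 16 cell cycle genes were too rare to test, with 1533 UMIs in Ucn3-high cells and 12 in Ucn3-zero cells. Of the 1533, 83.1% lay in 8 of 588 Ucn3-high cells with at least 10 such UMIs each. No Ucn3-zero cell reached 10 (0 of 6, 0 of 29 and 0 of 9 in mice 1, 2 and 3). Ucn3-zero cells were also shallower, with a median of 16025.5 UMIs against 45138 in Ucn3-high cells. A count of 10 was thus harder for them to reach, and so few cells do not show that such cells are absent on that side. Of the urocortin and somatostatin list, 1 of 11 genes could be tested: Sstr3, a somatostatin receptor, at 36.1 ± 6.94 CPM in Ucn3-high cells and 33.2 ± 17.1 CPM in Ucn3-zero cells (adjusted p = 0.923 in edgeR). The receptors Crhr1 and Crhr2 had 26 and 3 UMIs in Ucn3-high cells, against 0 and 0 in Ucn3-zero cells.

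Among markers of other cell types, 1 of 5 alpha, 1 of 3 gamma (Tspan8) and 1 of 8 duct markers (Tff2) were lower in Ucn3-high cells. Of 18 acinar markers 0 passed in edgeR, with 3 lower at an unadjusted p under 0.05, all 18 negative and a median of -1.52. That median came from mouse 2: within mice it was -0.095, -3.10 and 0.0073. Reg2 (-3.15), Pnliprp2 (-2.40) and Klk1 (-2.38), acinar genes outside the list and named after their values were seen, were among the 60 lower genes. In mouse 2 they stood at 16.9, 13.6 and 18.3 CPM in Ucn3-high cells, against 246, 87.2 and 116 CPM in Ucn3-zero cells, and in mice 1 and 3 none exceeded 14.3 CPM on either side. For these genes the sides overlapped.

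**Figure D5:**
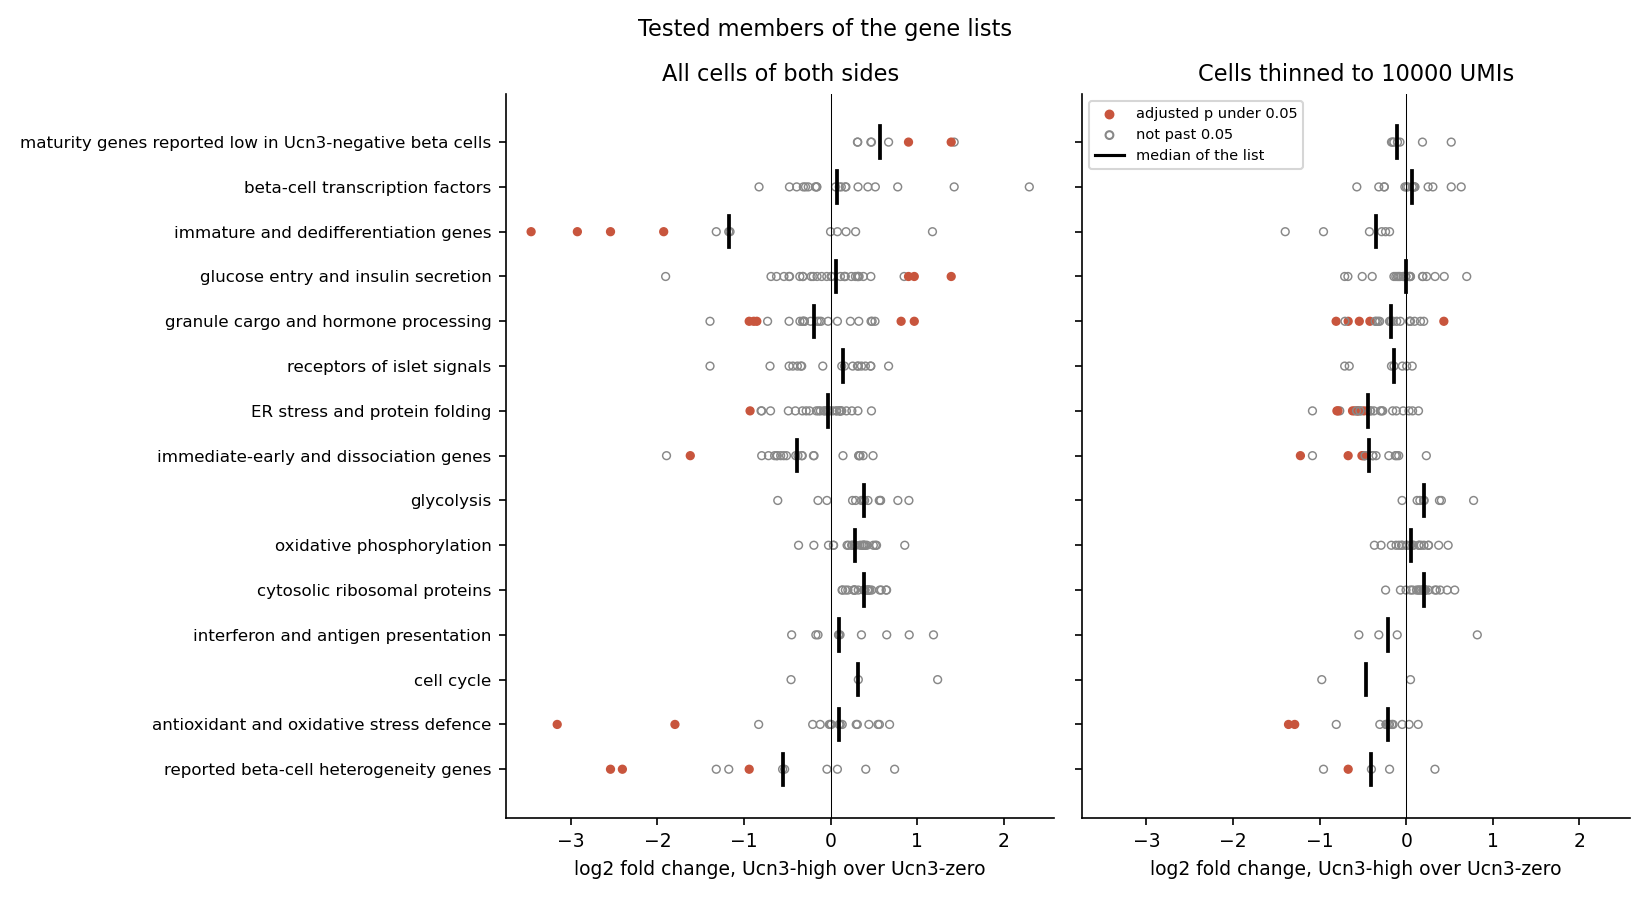
Log2 fold change, Ucn3-high over Ucn3-zero (x axis), of each tested member of the gene lists, for all UMIs and for cells thinned to 10000 UMIs, with the list median as a bar and genes past the false discovery rate in red. The median of the maturity genes is 0.57 and -0.10 in the 2 panels, and that of protein folding -0.035 and -0.45.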

How the data were processed

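Single-cell RNA of dissociated islets from 3 mice was counted in 3 droplet libraries (10x 3′ chemistry). The authors deposited UMI counts per gene and barcode, made with Cell Ranger 2.2 on mm10 per the submitters' processing notes, while the file headers name software 3.1.0. The libraries held 32389170, 48076507 and 57849496 UMIs in 6005, 4444 and 5713 barcodes. The 720 insulin-rich cells were found by the rule given above, doublet scores were computed with Scrublet in scanpy 1.11.5, and UMIs were summed per mouse and side. Sums were tested in edgeR 4.0.16 (quasi-likelihood, TMM, filterByExpr, Benjamini-Hochberg over all genes tested, R 4.3.3). Ucn3, Ins1, Ins2, Gcg, Sst, Ppy and mitochondrial genes chose the cells and were not tested. The mouse is a block because both sides of a mouse come from the same animal. Over 1102 genes, deviations of the 2 sides correlated at 0.19, 0.85 and 0.68 within mice and at -0.74 to 0.18 between mice. Deviations were taken from the mean of the 3 mice of a side, which by itself lowers the values between mice. The gap is thus partly fixed beforehand. For mouse 1 the value within the mouse (0.19) was close to that of its Ucn3-zero side with the Ucn3-high side of mouse 3 (0.18). DESeq2 1.42.0 and other cell choices were alternatives. The named genes are, per direction, the 12 with the largest fold change that passed, reached 50 CPM on the higher side, went the same way in every mouse and had the same sign after thinning. Genes of other cell types' marker lists and numbered gene models were not eligible. Up to 4 called members of each pathway list and all 8 maturity genes were added. Some genes that these rules or lists hold are counted but not reported here by name. The members and the 29 lists were chosen with earlier results of these data known. On simulated counts of 8513 genes the test recovered 41% of genes changed by a log2 of 1 and 90% of those changed by 2. For the thinned sums (3192 genes) it recovered 63% and 81%. False calls numbered 6 with all UMIs and 9 with thinned sums. The changed genes averaged at least 50 CPM, and all genes were drawn with 1 common dispersion. Recovery of rarer genes, or of genes whose UMIs sit in few cells, was not simulated. The mice are separate animals and the mouse is a block, so p-values measure the spread of the side difference over 3 animals. That spread also holds the sampling of few Ucn3-zero cells.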

Additional observations from a re-analysis of the deposited data

How the results depend on the processing

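The comparison of all UMIs called 23 genes higher and 60 lower in Ucn3-high cells. With library totals and no TMM it called 5 and 238, with insulin left out of library size 59 and 46, with DESeq2 5 and 32, and with no filter on low counts 93 and 66. Without the replicate block, 3 were higher and 14 lower. Leaving out a mouse gave 3 to 25 higher and 20 to 60 lower. Thinning gave 8 and 37, thinning with the sides from all UMIs 2 and 11, depth bins with at least 3 cells a side 2 and 11, and at least 20000 UMIs 61 and 72. Insulin of at least 50% gave 0 and 10, and leaving out the highest doublet scores 8 and 17. Leaving out cells with 3 markers of another cell type gave 0 and 2 of 762 genes tested. That limit kept only 8, 14 and 34 Ucn3-high and 2, 5 and 1 Ucn3-zero cells. With the duct list not used, the same limit kept 66, 216 and 278 Ucn3-high and 6, 29 and 9 Ucn3-zero cells. It then gave 21 higher and 60 lower, and 79 of the 83 genes were called the same way. The thinned comparison called 8 higher and 37 lower. It gave 28 and 22 with no TMM, 0 and 0 with DESeq2, 10 and 56 with no filter, 1 and 2 without the replicate block, 2 and 11 with sides from all UMIs, and 14 and 54 with another seed. Leaving out a mouse gave 2 to 12 higher and 5 to 29 lower.

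Of the values of the 31 named genes that passed, 375 kept direction and call under an alternative, 234 kept direction only and 8 changed sign. Genes named for their fold change had been chosen for 1 direction in every mouse and after thinning, so kept direction was partly fixed beforehand. Of the values of the 6 maturity genes that did not pass, 12 changed sign. Both kinds are listed next, and Ero1lb, Ffar1, G6pc2, Glp1r and Prlr are of the second. Signs changed without the highest doublet scores for Chga (0.20), Igfbp7 (0.093), Pam (0.11), Rgs2 (0.032), G6pc2 (-0.057) and Glp1r (-0.53). After thinning they changed for Ero1lb (-0.16), Ffar1 (-0.14), G6pc2 (-0.10), Iapp (-0.068), Prlr (-0.17) and Trpm5 (-0.072). They also changed with no TMM for G6pc2 (-0.16) and Glp1r (-0.078), and for Glp1r without replicate 1, where leaving out a mouse gave -0.14 to 1.23. With the 3-marker limit that used the duct list they changed for Ero1lb (-0.68), G6pc2 (-0.34), Prlr (-0.25), Slc2a2 (-0.52) and Tmem215 (-0.50). No named gene changed sign when the duct list was not used. The cause was not tested. Depth bins with at least 10 cells a side could not be fitted, as no bin held them. The bins of 3 cells, the other seed and the marker limit without duct genes were chosen after seeing the data. The 44 Ucn3-zero cells limit the precision of every result.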

Other observations

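Cd81 and Trpm5 are neighbours on chromosome 7 that are transcribed toward each other, Cd81 at chr7:143052739-143067934 on the plus strand and Trpm5 at chr7:143069153-143094642 on the minus strand (GRCm38). Cd81 was at -2.54 and Trpm5 at 1.39 on the log2 scale, Ucn3-high over Ucn3-zero, and at -2.91 and 1.69 in cells with at least 20000 UMIs. In cells thinned to 10000 UMIs they were at -0.95 and -0.072, neither called, so the opposite signs were not seen there. Among genes under the level set for named genes, the largest increase in Ucn3-high cells was in Akr1c19, an aldo-keto reductase, at 36.5, 38.2 and 42.1 CPM in Ucn3-high cells and 3.30, 10.9 and 10.7 CPM in Ucn3-zero cells (log2 2.17, adjusted p = 0.00211 in edgeR). The largest decrease was in Prss23, a serine protease, at 0, 0.147 and 1.19 CPM in Ucn3-high cells and 3.30, 6.54 and 49.9 CPM in Ucn3-zero cells (log2 -5.37, adjusted p = 1.9e-10). It rests on 0, 2 and 13 UMIs in Ucn3-high cells and 1, 3 and 14 UMIs in Ucn3-zero cells. Both genes were chosen after their values were seen.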
